A study of Mus musculus with 12 samples.

Results

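Long intergenic noncoding RNAs (lincRNAs) were followed here through the probes of a mouse expression array that carry a stretch of genome as their only name. These names give a chromosome, a start, an end and a letter, F or R, for one of the strands, in the coordinates of the mouse genome build mm9 that the array headers give. All non-control probes with such a name were taken, which gave 16181 of the 55681 non-control probes of the array (29.1%). They lie in 3540 intervals, of which 1251 had probes named F only, 1222 had probes named R only and 1067 had both, and these intervals merge into 2223 loci that do not overlap. Counting each letter of an interval apart gives 4607 interval strands, with 1 to 10 probes each and a median of 3. The place of a probe inside its interval was not used here, because the scanner output names the interval alone, and the genes around the intervals were not analysed here.

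The intervals were measured in neurospheres, floating aggregates of neural progenitor cells, which were prepared from the telencephalon of C57BL/6 embryos at embryonic day 13 and differentiated for 7 days without growth factors. Neurospheres of nontransgenic embryos are called WT. Neurospheres of double transgenic APPswe/PS1dE9 embryos, whose transgenes Mo/HuAPP695swe and PS1-dE9 are directed to neurons of the central nervous system, are called APP_WT when left untreated. The same transgenic neurospheres received 1 µM bradykinin (BK_APP), an agonist of the kinin B2 receptor, or 1 µM HOE-140 (HOE_APP), an antagonist of that receptor, on days 0, 3 and 6. Each of 3 comparisons, APP_WT with WT, BK_APP with APP_WT and HOE_APP with APP_WT, was hybridized on 4 arrays with 2 colors, with the dyes swapped between replicates 1 and 2 (R1, R2) and replicates 3 and 4 (R3, R4). BK_APP, HOE_APP and APP_WT all carry both transgenes, and APP_WT stands in all 3 comparisons. The direction of the HOE_APP arrays is likely only, because on these arrays the 2 channel labels give one and the same treatment. It was taken from the array titles, the labels of the first channel and the layout of the BK_APP arrays, and not from measured values.

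LincRNAs are transcripts without a recognized protein that come from stretches between protein-coding genes. Many were first catalogued from the histone marks that cover active promoters and transcribed gene bodies, and an interval then bounds a transcribed domain and not a single exon. Some act in the nucleus, at chromatin or as a scaffold of nuclear bodies, others in the cytoplasm, and as a class they tend to be less abundant and more restricted to one cell type than messenger RNAs. In the developing brain many are switched on or off as progenitors become neurons and glia.

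A smaller share of interval probes than of other probes was detected. A probe counted as expressed when its spots were well above background in one condition of a comparison on 3 or 4 of its arrays, which 5217 interval probes (32.2%) and 24144 of the 39500 other probes (61.1%) met. These 5217 probes lie in 2590 interval strands, 2135 intervals and 1462 loci. Of the 16181 interval probes, 5169 were above background on no array in any condition, 4114 on at most 1, 1681 on at most 2, 1025 on 3 and 4192 on all 4 arrays of some condition. Probes just outside the filter, with 2 arrays, had a median mean log2 intensity of 6.47, and those just inside, with 3 arrays, one of 6.64. In both channels of all 12 arrays 2505 interval probes were above background. The median mean log2 intensity was 7.21 over the expressed interval probes and 8.98 over the other expressed probes. As levels of different probes are not comparable, this describes the brightness and with it the precision of the measurements.

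**Figure D1:**
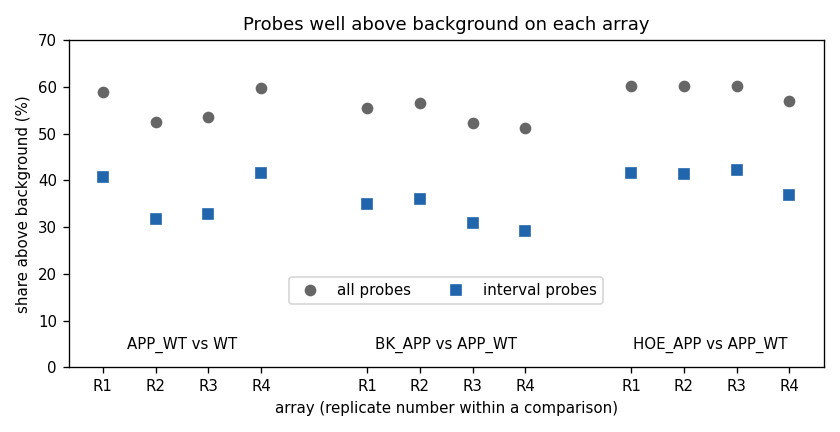
Share of probes well above background (y axis, percent) on each of the 12 arrays (x axis, by comparison and replicate), for all non-control probes (grey circles) and for the interval probes (blue squares). The interval probes lie between 29.1% and 42.2% and below all probes on every array.

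Detection did not single out one condition. In the comparison of APP_WT with WT, 4116 interval probes were above background on 3 or 4 arrays in APP_WT and 3839 in WT. In that of BK_APP with APP_WT the numbers were 3724 in BK_APP and 3928 in APP_WT, and in that of HOE_APP with APP_WT they were 4815 in HOE_APP and 4525 in APP_WT. The untreated APP_WT neurospheres alone thus gave 3 different numbers, 4116, 3928 and 4525, on 3 sets of arrays, a spread wider than the difference within each comparison. These differences were not tested.

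Probes of one interval strand were often detected only in part. Of 3382 interval strands with at least 3 probes, all probes were expressed in 391, some in 1664 and none in 1327. Of the 1067 intervals with both letters on the array, both strands had an expressed probe in 455, one strand in 454 (F in 213, R in 241) and no strand in 158. Of the probes named F 30.8% were expressed, and of those named R 33.7%.

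The intervals also differ in how they are drawn. Their lengths, as end minus start, ran from 61 to 7128486 bases with a median of 7314.5 bases. For 1027 intervals (29%) the length was an exact multiple of 25 bases, and these had a median length of 17800 bases against 2715 bases for the other 2513. Of the probes of the first kind 31.4% were expressed and of the second 32.9%, with median log2 intensities of 7.22 and 7.21. With the intervals ordered by length into 4 groups of equal size, 26.1% of the probes were expressed in the group of the shortest intervals, then 36.4% and 32.6%, and 32% in that of the longest. By chromosome the share expressed ran from 25.1% on chromosome 9 to 39.7% on chromosome 17.

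The arrays set limits that bear on all comparisons. The median log2 ratio of the expressed interval probes was −0.045 on R1, −0.046 on R2, 0.055 on R3 and 0.015 on R4 of APP_WT over WT, so that it followed the dye orientation, as it did in the treated comparisons. Arrays of the same orientation correlated over the interval probes with r between 0.119 and 0.358. Arrays of opposite orientation correlated with r between −0.0137 and 0.0959 in APP_WT over WT and between −0.313 and −0.0575 in the treated comparisons. These r are across 5217 probes, which are not independent replicates. The arrays of APP_WT and WT lay on one slide and the 8 treated arrays on another, so that slide and that comparison cannot be told apart. Both conditions of a ratio share an array. The methods of the study describe the replicates as independent biological ones.

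The untreated transgenic neurospheres were compared with WT to ask how the 2 kinds of culture differ. The methods of the study name wild-type or APP/PS1 pregnant mice as the source of the embryos. Genotype may therefore go with litter and preparation. In APP_WT, 413 expressed interval probes changed (limma, adjusted p under 0.05), 213 higher and 200 lower. This is 7.92% of the interval probes, against a background of 18.5% of all expressed probes that were tested. By direction, 4.08% of the interval probes were higher against 11.6% of all probes, and 3.83% were lower against 6.96% of all. Among the calls, 48.4% were lower for interval probes and 36.6% for the other probes. The changes were small, with a median log2 fold change of 0.32 for the probes that rose and −0.26 for those that fell. Beyond 1.5-fold lay 33 of the 413 called probes, without a count over all probes at that fold. Beyond 2-fold lay 5 of the 413, against 236 of the 5446 called probes of the whole array. These 5 are the 3 probes of the R strand of chr8:93337794-93348869 and 2 probes on chromosome 10. Over all expressed interval probes the median log2 fold change was 0.0048, and over all expressed probes it was 0.0046. Probes with the same sign on all 4 arrays numbered 819 of the interval probes (15.7%), against 26.9% of all probes, and 328 of the 413 called ones.

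The split by direction depended on the processing. With the processed signals of the scanner software in place of background correction and loess, 133 interval probes were higher and 832 lower, with 18.5% of the interval probes and 26.7% of all probes called. With median centering 138 were higher and 265 lower (7.72%, against 19.9% of all probes), and without a dye coefficient 54 were higher and 33 lower (1.67%, against 6.31%). Of all calls on the array, 37.5% were lower with loess and the dye coefficient, 65.8% with the processed signals and 63.3% with median centering, so that the shift to lower calls was not one of the interval probes alone. Of the 413 probes, 302 were still called with the processed signals, 284 with median centering and 87 without the dye coefficient, and 132 stayed past the threshold whichever of the 4 arrays was left out. Same-numbered arrays of the 3 comparisons shared deviations. With the replicate number as a block of one sign, 154 interval probes were higher and 125 lower (5.35%, against 14.2% of all probes). With the sign of the block turned for APP_WT over WT, a fit chosen after the values were seen, 486 were higher and 379 lower (16.6%, against 28.1% of all probes), and these held all 413.

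**Figure D2:**
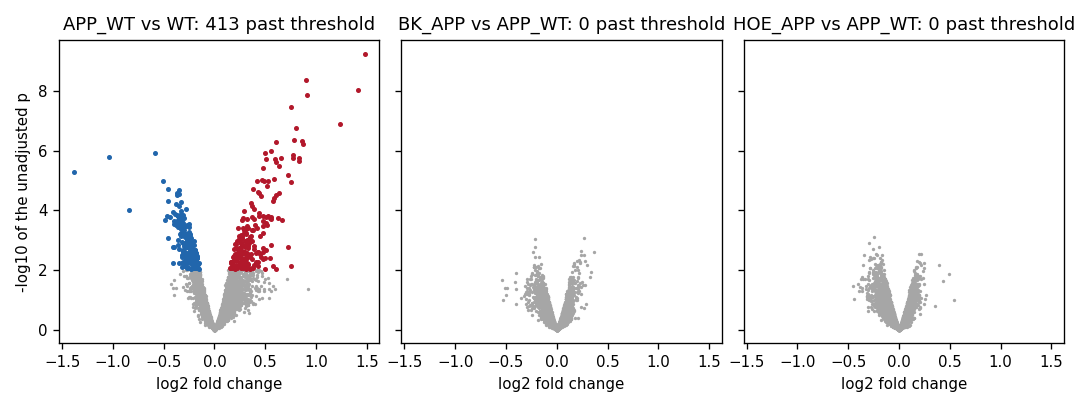
Log2 fold change (x axis) against −log10 of the unadjusted p (y axis) of the 5217 expressed interval probes in each comparison. Colored points passed the adjusted threshold (red higher, blue lower): 413 in APP_WT against WT and 0 in either treated comparison.

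Brighter interval probes were called more often, up to a point. All expressed probes were divided into 5 equal groups by mean log2 intensity. In the dimmest, with intensities up to 7.04, 4.38% of the interval probes were called, then 7.28%, 11.7% and 18.9%, and 11.4% in the brightest. The other probes had higher shares in each group, with 11.5%, 18.9%, 25.3%, 26.3% and 19.3% from the dimmest to the brightest. The interval probes are concentrated among the dim ones, with 2145 in the dimmest group and 202 in the brightest. The difference between the shares was not tested.

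**Figure D3:**
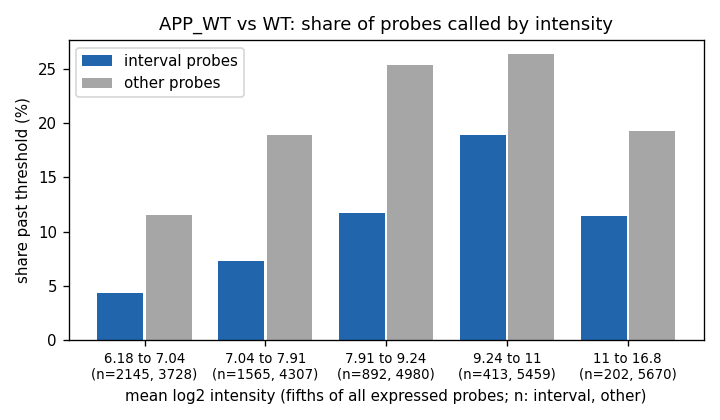
Share of expressed probes past the adjusted threshold in APP_WT against WT (y axis, percent) in 5 equal groups of mean log2 intensity (x axis), for interval probes (blue) and other probes (grey), with the number of probes of each kind. The interval probes lie below the others in each group, with 4.38% against 11.5% in the dimmest and 18.9% against 26.3% in the second brightest.

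The 413 calls were spread over 275 interval strands, 264 intervals and 231 loci. By chromosome, the share of expressed interval probes that were called ran from 3.54% on chromosome 16 to 15.1% on chromosome 10. Of the 4 groups by length, that of the shortest intervals had 13 higher and 29 lower calls and that of the longest 82 higher and 50 lower ones. Intervals with a length in steps of 25 bases had 101 higher and 74 lower calls, and the others 112 higher and 126 lower. These splits were looked at after the values were known and were not tested.

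Called probes of one interval strand mostly had the same direction. In 87 interval strands at least 2 probes were called, and these held 225 of the 413 calls. All called probes were higher in 40 of these strands, all were lower in 44, and both directions occurred in 3 (the F strand of chr11:3538125-3554450 and the R strands of chr13:112717680-112733330 and chr17:35080914-35090009, picked out after their values were seen). In 36 strands every expressed probe was called. Among the 1296 strands with at least 2 expressed probes, all of them had one sign in 657 (50.7%), called or not, and this share was 45.8% for BK_APP and 53% for HOE_APP, where no probe was called. With at least 3 expressed probes it was 44.5%, 37.7% and 45.3%. The median SD of the log2 fold change among the probes of a strand was 0.0741 in APP_WT against WT, and the SD of the strand means was 0.141. The same figures were 0.0485 and 0.0599 for BK_APP and 0.0496 and 0.0738 for HOE_APP. Probes of one interval may share bases of a transcript and are not replicates of each other.

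The largest increase lay on the R strand of chr8:93337794-93348869, an interval of 11075 bases. All 3 of its probes rose. The probe A_30_P01026656 had log2 ratios of 1.61, 1.34, 1.46 and 1.5 on R1 to R4, a log2 fold change of 1.48 ± 0.0702 (SE) and an adjusted p of 3.14e-07 in limma. Its mean log2 intensity was 8.01 in WT and 9.49 in APP_WT. The next probe gave 1.34, 1.23, 1.42 and 1.66, with a fold change of 1.41 (adjusted p = 2.11e-06, limma), and the third 1.30, 0.92, 1.17 and 1.55, with a fold change of 1.23 (adjusted p = 1.39e-05, limma). On this strand no array had a ratio near 0. Probes were named here only if all 4 arrays had one sign, so that the same direction in both dye orientations is no finding. The F strand of the same interval had 1 expressed probe, with ratios of −0.25, 0.05, 0.25 and 0.12 and a log2 fold change of 0.04 (adjusted p = 0.69, limma).

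A short interval on chromosome 4 and a long one on chromosome 6 followed. All 3 probes of the F strand of chr4:149445201-149445902, 701 bases long, rose, with log2 fold changes of 0.91, 0.80 and 0.77 and a largest adjusted p of 9.79e-05 in limma. Averaged over its probes, the ratios were 0.66 on R1, 0.51 on R2, 0.90 on R3 and 1.24 on R4. This interval lies inside the larger chr4:149383134-149451259, which had 1 expressed probe on the F strand, at −0.09, and 5 on the R strand, between −0.18 and 0.11, none of them past the threshold. Both expressed probes of the F strand of chr6:57583950-57624216 rose, by 0.90 and 0.87 on the log2 scale, and their mean ratios were 0.68, 0.66, 1.11 and 1.09 on R1 to R4. These probes were above background on 4 arrays in APP_WT and on 2 in WT, so that the level in WT was measured on part of the arrays only.

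Neighboring intervals on chromosomes 6 and 14 rose together. On the F strand of chr6:31170350-31287353 all 3 probes rose, by 0.86, 0.56 and 0.52, with mean ratios of 0.62, 0.70, 0.54 and 0.73 on R1 to R4. The interval chr6:31233512-31241062, which lies inside it, had 2 probes on the F strand that rose by 0.59 and 0.42. Within the whole locus, chr6:31017987-31293337, 6 of 18 expressed probes were higher and none lower. Of these 6, 1 lost the call when some array was left out. On chromosome 14 the F strands of chr14:26834450-26847000 and chr14:26973425-26986650, which are 126425 bases apart, had 3 of 4 and 2 of 2 expressed probes called higher. Their mean ratios on R1 to R4 were 0.30, 0.61, 0.48 and 0.64 for the first and 0.32, 0.79, 0.74 and 0.72 for the second. One probe of each lost its call when 1 array was left out, with adjusted p of up to 0.103 for the first and 0.0623 for the second (limma). The R strand of the first had 2 expressed probes, with log2 fold changes of 0.02 and 0.01, neither past the threshold.

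Further increases were found on chromosomes 7, 14, 4 and 5. The R strand of chr7:128341797-128414692 had 5 of 5 probes higher, with log2 fold changes from 0.37 to 0.83 and mean ratios of 0.46, 0.45, 0.58 and 0.96. The weakest of the 5, A_30_P01028830, did not pass with the processed signals (adjusted p = 0.0642, limma), without the dye coefficient (0.0532), with the deposited ratios (0.0524) or without R4 (0.0836). The R strand of chr14:55433382-55452757 had 2 of 2 higher, by 0.64 and 0.48, and its F strand had 2 expressed probes at 0.14 and 0.06 that did not pass. On the F strand of chr4:123155515-123361565 2 of 3 expressed probes rose, by 0.72 and 0.53, while the third, which was above background on 1 array in APP_WT and on none in WT, had a log2 fold change of 0.08. On chromosome 5 all 7 called probes of the locus chr5:22801058-22939737, of 16 expressed, were higher, with mean ratios of 0.50, 0.46, 0.33 and 0.41 on R1 to R4. Of these 7, 2 lost the call when some array was left out.

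The largest decreases came from 2 short intervals on the F strand of chromosome 10, chr10:96098058-96098623 (565 bases) and chr10:96103732-96103867, which are 5109 bases apart. One probe of the first had log2 ratios of −0.74 and −0.35 on R1 and R2 and of −1.90 and −2.56 on R3 and R4, a log2 fold change of −1.39 ± 0.164 (SE) and an adjusted p of 0.000204 in limma. Another gave −0.45, −0.25, −1.02 and −1.64, with a fold change of −0.84 (adjusted p = 0.00183, limma). The third probe of the interval had ratios of −0.15, 0.14, −0.09 and −0.49 and did not pass (log2 fold change −0.15, adjusted p = 0.188, limma). The probe of chr10:96103732-96103867 gave −0.32, −0.45, −1.45 and −1.93, with a fold change of −1.04 (adjusted p = 9.14e-05, limma). The arrays with APP_WT in Cy5 gave decreases several times those with APP_WT in Cy3. That all 4 arrays were below 0 for the 3 called probes is part of the rule that named them. Without the dye coefficient 2 of the 3 lost the call, with adjusted p of 0.0541 for the probe of chr10:96103732-96103867 and 0.0563 for the second probe of the longer interval. Between them and the R strand of chr10:96082444-96096696, where 2 of 4 expressed probes fell by 0.35 and 0.33 on the log2 scale but did not pass without R4, the F strand of chr10:96096995-96097589 had 1 of 2 expressed probes lower, at −0.40.

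Other decreases followed on chromosomes 5, 15, 6 and 10. Their leading probes were named only where all 4 arrays had one sign, so that this sign is no finding. Both probes of the R strand of chr5:77084398-77086144 fell, by 0.58 and 0.51 on the log2 scale, with mean ratios of −0.48, −0.62, −0.50 and −0.58 on R1 to R4. All 3 probes of the R strand of chr15:8463685-8494960 fell, with log2 fold changes of −0.49, −0.46 and −0.44 and mean ratios of −0.39, −0.67, −0.58 and −0.22. Its F strand had 1 expressed probe, at 0.19, which did not pass. On the R strand of chr6:133054025-133069850, 2 of 4 expressed probes fell, by 0.47 and 0.46 on the log2 scale, and the other 2 had log2 fold changes of −0.04 each. The first of these decreases averaged −0.56 on R1 and R2 and −0.37 on R3 and R4, and the second −0.61 and −0.30. All 3 probes of the R strand of chr10:62267317-62269871 fell, with mean ratios of −0.35, −0.61, −0.24 and −0.45 on R1 to R4, and the F strand of the intervals that overlap it had 2 expressed probes, at 0.04 and −0.04. One probe of the 3, A_30_P01030720, kept its call whichever array was left out, with ratios of −0.49 and −0.56 on R1 and R2 and of −0.18 and −0.26 on R3 and R4. The other 2 lost theirs without R2 and without R4, with adjusted p of 0.0556 and 0.0682 for A_30_P01028194 and of 0.0966 and 0.092 for A_30_P01029003 (limma).

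**Figure D4:**
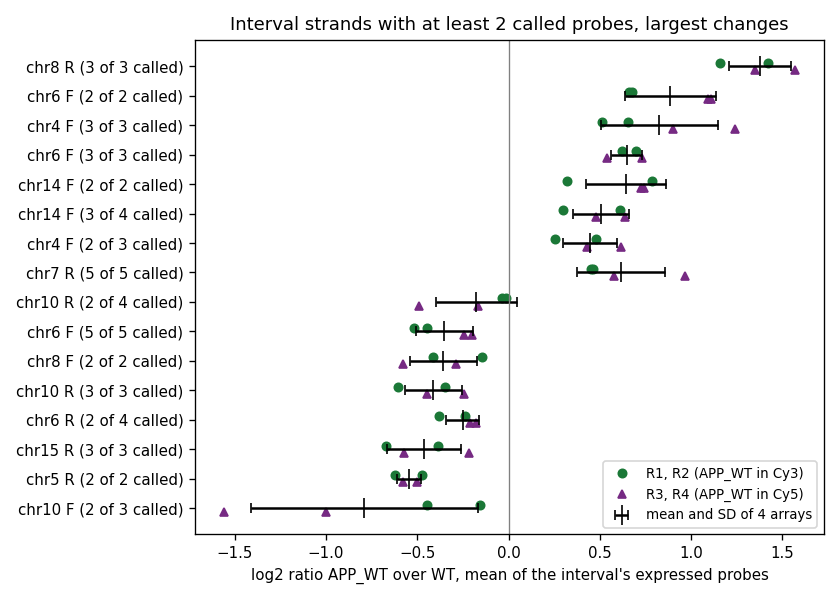
Log2 ratio of APP_WT over WT (x axis) on each array, averaged over the expressed probes, for the 8 interval strands with the largest increases and the 8 with the largest decreases by the mean of their called probes, among those with at least 2 called probes (y axis, with chromosome and strand letter). Green circles are R1 and R2, purple triangles R3 and R4, and black bars the mean and SD of the 4 arrays. The strand on chromosome 8 lies between 1.16 and 1.57, and the F strand on chromosome 10 between −1.56 and −0.15 with the orientations apart.

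Some loci held many called probes. At least 4 called probes were found in 23 loci. The locus chr6:54591416-54597566 had the most, with 9 of 10 expressed probes lower. Their log2 ratios averaged −0.42 on R1, −0.49 on R2, −0.21 on R3 and −0.24 on R4, and their adjusted p ran from 0.000744 to 0.0159 in limma. All 5 probes of the F strand of the full interval were lower (−0.40 to −0.31), as were both F probes of the shorter interval within it, chr6:54595084-54595833, and 2 of 3 expressed probes of its R strand. The locus chr8:74431707-74442440 had 7 of 8 expressed probes lower and chrX:54627918-54638568 had 7 of 12 lower, with averages of −0.26, −0.65, −0.06 and −0.17 over the called probes of the latter on R1 to R4. Each of the 7 on chromosome X lost its call when some array was left out, as did 3 of the 7 of chr8:74431707-74442440 and 1 of the 9 of chr6:54591416-54597566. Without R2 the 4 called probes on the R strand of chrX:54627918-54638568 and the 2 on its F strand did not pass (adjusted p from 0.0767 to 0.266, limma). The locus chr4:131734714-131742542 had 6 of 13 lower, of which 3 lost the call when some array was left out. Higher ones were the locus chr10:83181374-83249918, with 7 of 14 expressed probes higher, and chr5:96591892-96606467, with 4 of 5. Of these, 6 of the 7 and 1 of the 4 lost the call when some array was left out.

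The locus chr19:5771425-5848475 had 22 expressed probes with mean log2 intensities from 6.79 to 16.5, of which 8 were called, 7 higher and 1 lower. All 3 probes of the R strand of chr19:5834117-5835940 rose, by 0.55, 0.54 and 0.39 on the log2 scale, with mean ratios of 0.63, 0.36, 0.75 and 0.24, and 1 of the 3 lost its call when 1 array was left out. On the F strand of the full interval 3 of 7 expressed probes rose, by 0.44, 0.30 and 0.16, of which 2 lost theirs in the same way. On the R strand of chr19:5798135-5800557 1 of 3 expressed probes passed, at 0.30, though not without R1, R2 or R3, and the others had log2 fold changes of 0.26 (adjusted p = 0.0555, limma) and 0.22 (adjusted p = 0.0893, limma). The 3 probes of the R strand of chr19:5801802-5802597 did not pass, and on them the arrays opposed each other, for one probe with ratios of −0.63 and −0.29 on R1 and R2 and of 1.41 and 0.49 on R3 and R4. The 1 expressed probe on the R strand of the full interval was called lower at −0.24 from ratios of 0.31 and 0.35 on R1 and R2 and of −0.88 and −0.74 on R3 and R4, so that its direction is that of one dye orientation only.

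Opposite strands of one interval did not follow each other closely. Over the 455 intervals with expressed probes on both strands, the mean log2 fold changes of F and R correlated with r = 0.094, a value across intervals and not across replicates. In 87 of these intervals some probe was called, and in 11 a probe was called on each strand. The strand means had the same sign in 6 of the 11, among them chr5:96591892-96606467 (0.52 on F, 0.20 on R), chr6:54591416-54597566 (−0.35 and −0.21), chr4:131734714-131742542 (−0.18 and −0.27) and chrX:54627918-54638568 (−0.17 and −0.30). In the rest of the 11 they had opposite signs. These were chr15:61984389-62102500 (0.10 on F, −0.23 on R), chr19:5771425-5848475 (0.14 and −0.24) and chr14:105497388-105511063 (0.23 and −0.03). The others were chr5:106982442-107045717 (0.12 and −0.03) and chr11:3538125-3554450 (−0.03 and 0.09).

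Dye orientation remained visible among the called probes. The means of the 2 orientations lay more than 0.5 apart on the log2 scale for 44 of the 413, 33 of them higher and 11 lower, with a median gap of 0.196 over all 413. For 26 called probes the orientations had opposite signs. A gap of 1 or more occurred for 9 probes called higher and 4 called lower, most of them picked out here after their values were seen. The higher ones lay on R strands, 3 of them on that of chr13:48620882-48643532, where the means were between −0.183 and −0.118 on R1 and R2 and between 0.971 and 1.21 on R3 and R4. The widest gap among the higher ones was 1.49, on the R strand of chr9:67414463-67483185, with means of 1.5 and 0.011. The lower ones were the strongest probe of chr10:96098058-96098623 (1.68), the probe of chr10:96103732-96103867 (1.3) and those on the R strands of chr19:5771425-5848475 and chr9:30529709-30589042 (1.14 each). On the R strands of chr19:5771425-5848475 and chr9:30529709-30589042 the orientations had opposite signs.

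**Figure D5:**
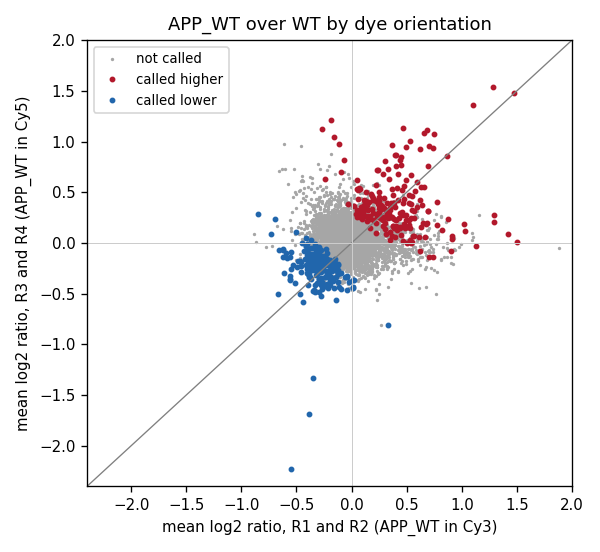
Mean log2 ratio of APP_WT over WT on the arrays with APP_WT in Cy3 (x axis, R1 and R2) against that on the arrays with APP_WT in Cy5 (y axis, R3 and R4) for the 5217 expressed interval probes. Red and blue points are the 213 probes called higher and the 200 called lower, and the line marks equal values.

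Few interval probes were detected in one condition alone. In APP_WT against WT, 18 interval probes were above background on at least 3 arrays in APP_WT and on none in WT. The reverse was found for 1 probe, on the R strand of chr11:59206727-59207172, with a log2 fold change of −0.215. As one side was not above background, these fitted values are neither exact folds nor bounds. The highest log2 fold change among the 18 was 0.391, for the R strand of chr14:73746324-73749119. The next were 0.381 for the R strand of chr1:175654606-175672031 and 0.378 for the R strand of chr17:33995525-34028025. The lowest of the 18 was −0.0014. Their adjusted p ran from 0.000561 to 0.993 (limma), so that not all of the 18 were called. Between treated and untreated transgenic neurospheres such probes had log2 fold changes from −0.0955 to 0.184. There was 1 for BK_APP and 2 for its APP_WT, and 7 for HOE_APP and 0 for its APP_WT. These counts are given without the share over all probes. Neither their size nor their tilt to one condition can therefore be read as particular to interval probes.

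Markers of some cell types moved in the same comparison. In APP_WT 14 of 15 expressed microglial markers were higher, and their summed intensity was 10009 to 12129 over the WT samples and 14404 to 18582 over the APP_WT samples. Among interferon-induced genes 10 of 12 were higher, with sums of 1949 to 2163 and of 7131 to 11628. Of the astrocyte markers 7 of 10 were higher, of the neuronal markers 3 were higher and 4 lower of 12, and of the fibroblast and pericyte markers 3 of 6 were lower. Of the oligodendrocyte lineage 1 marker was higher and 1 lower of 10, and of the endothelial markers 1 of 4 expressed was higher. On no array were the microglial markers P2ry12, Laptm5, Spi1 and Adgre1, the interferon-induced genes Ifit1, Rsad2, Irf7 and Ifi27l2a, the endothelial markers Cldn5, Cdh5 and Flt1 and the pericyte marker Rgs5 well above background in WT. Tyrobp, Trem2, Tmem119 and Ptprc were so on 1 array, as was Tek, and Cx3cr1, C1qa, Fcrls and Usp18 on 2. The part of these lists in the values of the intervals was not tested, and in RNA of whole cultures more cells of a type cannot be told apart from more RNA per cell.

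BK_APP was compared with APP_WT to ask what bradykinin adds in transgenic neurospheres. No interval probe passed the adjusted threshold, as no probe of the array did (limma, background 0% of 29361 probes). The smallest adjusted p of an interval probe was 0.967. At an unadjusted p under 0.05 stood 205 interval probes (3.93%), 78 higher and 127 lower, against a background of 4.46% of all probes. The median log2 fold change of the interval probes was −0.016, and that of all expressed probes −0.0045. The array medians were 0.027 on R1, 0.0098 on R2, −0.07 on R3 and −0.023 on R4, so that the sign changed with the dyes. Of the interval probes 8.34% had the same sign on all 4 arrays, against 9.64% of all probes. All interval probes lay between −0.54 and 0.37, and the 95% interval of a log2 fold change extended by 0.155 to each side for the median probe, which corresponds to 1.11-fold.

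By the smallest unadjusted p the leading probe for BK_APP lay on the F strand of chr9:82991830-82999937. Its ratios were 0.38, 0.36 and 0.17 on R1 to R3, with no value on R4, and its log2 fold change was 0.27 (adjusted p = 0.967, limma, fitted on 3 arrays). A probe on the F strand of chr7:4827340-4863315 had ratios of 0.08, 0.24, 0.29 and 0.32, above 0 on all 4 arrays (adjusted p = 0.967, limma). In this comparison it was above background on only 2 arrays in each condition. One on the F strand of chrX:69100279-69100983 had −0.06, −0.06, −0.43 and −0.32 but was above background on no array of this comparison, so that its ratio is one of background signals. One on the R strand of chr1:182686731-182709331 had −0.04, 0.17, −0.57 and −0.43 and one on the R strand of chr1:53215418-53244461 had −0.32, 0.19 and 0.80 with no value on R4, so that the arrays of each did not have one sign. Without R1 of BK_APP 23 interval probes passed, 22 of them lower (0.441%, against 0.211% of all probes), and without R4 1 did (0.0192%, against 0.00681%), on the R strand of chr13:24611851-24612400 at 0.67.

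HOE_APP was compared with APP_WT to ask what blocking the B2 receptor changes. No interval probe passed the adjusted threshold (limma, background 0%), and the smallest adjusted p was 0.924. At an unadjusted p under 0.05 stood 283 interval probes (5.42%), 86 higher and 197 lower in the likely direction, against 5.02% of all probes. The median log2 fold change was −0.017 for interval probes and 0.00032 for all expressed probes, and the array medians were 0.023, 0.02, −0.067 and −0.043 on R1 to R4. The same sign on all 4 arrays was found for 10.7% of the interval probes and 10.6% of all probes. Without R4 of HOE_APP 3 interval probes passed (0.0575%, against 0.0307% of all probes), on the R strands of chrX:90997595-91009570 and chr5:30550467-30559008 and the F strand of chr2:118408095-118415745. The interval of the median probe had the same half-width of 0.155. With the replicate number as a block and its sign turned for APP_WT over WT, 1 interval probe passed, the strongest decrease over WT on the F strand of chr10:96098058-96098623, at 0.49 with HOE-140 (adjusted p = 0.0263, limma), which is 0.0192% of the interval probes against 0.0102% of all probes. Both comparisons use APP_WT.

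The leading probes for HOE_APP had one sign on all 4 arrays. That on the F strand of chr17:84470764-84486339 had ratios of −0.08, −0.12, −0.48 and −0.30 and a log2 fold change of −0.25 (adjusted p = 0.924, limma). That on the R strand of chr11:102983499-102994170 had −0.23, −0.10, −0.51 and −0.33. The ratios on the R strand of chr12:88216447-88224965 were −0.18, −0.15, −0.34 and −0.35, and those on the R strand of chr16:4592919-4594230 were −0.12, −0.002, −0.34 and −0.34. The R strand probe of chr19:5771425-5848475, whose ratios over WT opposed each other by orientation, had 0.08, 0.06, 0.39 and 0.25. In each of these 5 probes the arrays with HOE_APP in Cy3, R3 and R4, gave the larger values. SAM and rank products, which the methods of the study name, both had a p of 0.05 or lower for 169 interval probes of HOE_APP (3.25%, against 2.31% of all probes) and for 86 of BK_APP (1.67%, against 1.84%), without adjustment.

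The agonist and the antagonist were set against each other at the same dose and days in 1 contrast, BK_APP minus HOE_APP. No interval probe passed (limma, background 0%, smallest adjusted p 1), and 83 had an unadjusted p under 0.05 (1.59%, against 2.49% of all probes), 39 of them positive and 44 negative. The differences ran from −0.62 to 0.44, with a half-width of the 95% interval of 0.219 for the median probe. This contrast treats the arrays as independent, whereas same-numbered BK_APP and HOE_APP arrays correlated in their deviations with r between 0.516 and 0.675, and with r of 0.423 and 0.432 after the dye term they share was taken out. In a fit of the 4 differences of same-numbered arrays, chosen after the values were seen, no interval probe passed either (smallest adjusted p 0.274, limma), and 443 had an unadjusted p under 0.05 (8.49%, against 8.57% of all probes), 263 positive and 180 negative. The half-width for the median probe was 0.148 there. Both treatments were measured against APP_WT, and values are therefore given side by side. The 213 probes higher in APP_WT than in WT had a median log2 fold change of −0.0091 with BK and −0.03 with HOE-140, and the 200 lower ones had 0.0062 and 0.018. Over all expressed interval probes the medians were −0.016 and −0.017. The 213 and the 200 were chosen on ratios with APP_WT in the numerator, and APP_WT is the denominator of both treated ratios. These medians are therefore not independent of that choice, and they were not tested. The R strand of chr8:93337794-93348869 had mean log2 fold changes of 0.06 with BK and −0.0079 with HOE-140. That of chr7:128341797-128414692 had 0.11 and −0.04, and the F strand of chr10:96098058-96098623 had 0.10 and 0.30, with a smallest adjusted p of 0.924 (limma). Without R1 of BK_APP 4 interval probes differed between the treatments (0.0767%, against 0.0443% of all probes), on the F strands of chr3:88323145-88335770, chr6:23105525-23118900 and chrX:12760566-12761600 and the R strand of chr6:83368261-83407280, each lower with BK in the likely direction. With HOE_APP taken in the opposite direction, 7 passed without R1 of BK_APP (0.134%, against 0.0613% of all probes), each with a negative difference, and 0 with all arrays.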

How the data were processed

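The 12 arrays were of a mouse expression design of 2 colors. The authors deposited the scanner output, made with Feature Extraction 11.0.1.1 according to the headers, with unnormalized median signal intensity and median background intensity per spot and channel, processed intensities and background flags. They also deposited a table of log2 ratios per array, used as an alternative. From the intensities, background was corrected by normexp (offset 50), ratios were normalized by loess (span 0.3, weight 0 for control and uneven spots), the 3671 control spots of 62976 were dropped, and spots of a probe were averaged in limma 3.58.1 under R 4.3.3. A probe counted as above background if at least 50% of its spots were flagged so, and 13 probes with a chromosome name and no strand letter were left out. One limma model with a mean and a dye coefficient per comparison (6 coefficients, 6 residual and 4.56 prior degrees of freedom) was fitted to all 29361 expressed probes. Tests were two-sided, with Benjamini-Hochberg adjustment over all of them and a threshold of 0.05. SAM (all sign changes of the arrays) and rank products were programmed anew. Replicate numbers paired the arrays. Deviations of same-numbered arrays correlated over all expressed probes with r between 0.516 and 0.675 for BK_APP and HOE_APP. For APP_WT over WT against either treated comparison r lay between −0.601 and −0.301, with APP_WT in the numerator of the one and the denominator of the other. On same-numbered arrays APP_WT carried the same dye in each comparison, for HOE_APP in the likely direction. The ratio of APP_WT over WT and the treated ratios thus had opposite dye orientations. After the dye term was taken out, r was 0.423 and 0.432 for BK_APP and HOE_APP and between −0.507 and −0.206 for the others. The source of the pairing is these values, not the labels. Scripts were tested on simulated data. The number of arrays limits the precision.

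Named probes are the 10 largest increases and 10 largest decreases among those called with one sign on all 4 arrays, the 5 smallest unadjusted p where none passed, and up to 10 intervals with at least 2 called probes. Other intervals in the text were chosen after their values were seen. Members and lists were chosen with earlier results of these data known. A planned look at gene probes within 50 kb was not made, as positions of gene probes in this build were not used here. No probe sequence is printed.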

Additional observations from a re-analysis of the deposited data

Results flagged for a closer look

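Of 51 sets of 4 arrays that were examined for a sample far from the others, 2 stood out, and chance alone gives about 1 in 20. For a probe on the F strand of chr14:26834450-26847000 (A_30_P01019479), the log2 ratio of APP_WT over WT was 1.11 on R2 and between 0.269 and 0.355 on the other arrays. This probe was above background on 2 arrays in APP_WT and on 1 in WT. For a probe on the R strand of chr7:128341797-128414692 (A_30_P01020072), the ratio was 1.13 on R4 and between 0.375 and 0.501 on the others. Without each array in turn, the log2 fold change ran from 0.294 to 0.716 for the first probe (adjusted p from 0.00105 to 0.103, limma) and from 0.468 to 0.783 for the second (0.00174 to 0.0257).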

How the results depend on the processing

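In APP_WT against WT, where 413 interval probes were called (213 higher, 200 lower, median log2 fold change 0.00478), the counts moved with several choices. Processed signals gave 965 (133 higher, 832 lower, median −0.147) and the deposited log2 ratios 931 of 3877 measured (105 higher, 826 lower, median −0.155), which is 24% against 31% of all probes, with 88.7% of these calls and 67.4% of all calls lower. Median centering gave 403 (138 higher, 265 lower), or 7.72% against 19.9% of all probes. With no filter on dim probes 323 of 16181 were called (194 higher, 129 lower), or 2% against 7.65% of all. No dye term gave 87 (54 higher, 33 lower), or 1.67% against 6.31% of all. One probe per interval strand gave 185 (106 higher, 79 lower), from fewer probes, or 7.14% against 20.1% of all. SAM with rank products gave 266 (130 higher, 5.13% against 12.1% of all probes), and 86 for BK_APP and 169 for HOE_APP. Leaving out 1 array gave 257 (without R3) to 692 (without R1), with 122 to 501 higher and 109 to 191 lower, or 13.3%, 6.69%, 4.93% and 5.96% of the interval probes without R1 to R4, against 18.9%, 13.7%, 13.4% and 12.8% of all probes. It gave 0 to 23 for BK_APP, 0 to 3 for HOE_APP and 0 to 4 for BK_APP minus HOE_APP, which otherwise stayed at 0 under the planned limma alternatives. The causes of these shifts were not tested. A replicate block gave 279 calls (154 higher, 125 lower). Added after the values were seen, a replicate block with its sign turned for APP_WT over WT gave 865 (486 higher, 379 lower), 1 for HOE_APP and 0 for the other 2 contrasts, and paired differences of BK_APP and HOE_APP gave 0. Without R1 of BK_APP and with the HOE_APP sign turned, 7 probes passed in BK_APP minus HOE_APP. An uncalled probe of chr14:26834450-26847000 at 0.139 turned to −0.0516 with processed signals and −0.0518 with the deposited ratios. Leaving out 1 array took an uncalled probe of chr4:123155515-123361565 from −0.00367 to 0.162, and one of chr1:53215418-53244461 for BK_APP from −0.0627 to 0.493. A slide block was not run, since each comparison lay on 1 slide. With the HOE_APP sign turned, its median was 0.0172 and the counts stayed at 0. The expressed interval probes had a median log2 intensity of 7.21, and the part of brightness in the counts was not tested.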
